A study of Drosophila melanogaster with 31 samples.

Results

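Crosslinking and immunoprecipitation (CLIP) of Nxf2 in control knockdown cells was set against its input for transposable elements of *Drosophila melanogaster*. The members were the element consensus entries of one deposited table with a mean of at least 1 RPM (reads scaled to the library total) over its 4 RPM columns, and 78 of 129 entries met this. Those columns are the IP and SMInput of the control knockdown and of a Piwi knockdown, and TAHRE, at under 1 RPM in both control libraries, passed only through the latter. The study used ovarian somatic cells (OSC), a cultured line derived from follicle cells of the ovary, and asked how Nxf2 takes part in silencing guided by piRNAs, the small RNAs bound by Piwi. The series held 31 samples, with further CLIP, poly(A)+ RNA, small RNA and chromatin libraries.

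The cells were a stable OSC line expressing myc-Nxf2, grown at 26 degrees C and transfected with siRNA against EGFP, which serves as the control knockdown (EGFP-KD). Endogenous Nxf2 was depleted as well, per the labels, in both the immunoprecipitate and its input. The header of the immunoprecipitate column names EGFP alone, whereas the header of the input column names Nxf2 too, so this depletion rests on the labels. Crosslinked lysates were treated with a limited amount of RNase T1, and the IP was made with an anti-myc antibody. The background was size-matched input (SMInput), size-selected RNA prepared without immunoprecipitation. The protein captured was therefore the tagged transgene product, in 1 stable line.

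The labels listed 2 IP samples and 2 SMInput samples, while the table gave 1 column for each, and whether the columns pool the samples is not stated. No value below therefore has a replicate check, and no p-value is given. Intervals are exact 95% intervals of the ratio of reads per library total. They cover counting error only, and reads are not independent molecules. An element was called higher in the IP at a ratio of at least 2 with an interval above 1, and lower at a ratio of at most 0.5 with an interval below 1. The tables hold elements only, so the knockdowns and the marker genes of follicle cells were not analysed here.

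In follicle cells of the fly ovary, Piwi carries piRNAs into the nucleus, many of them made from the flamenco locus, which holds remnants of gypsy-type retrotransposons in antisense orientation. Piwi finds matching nascent transcripts, and the complex of Panx, Nxf2 and Nxt1 acts after this recognition to bring about transcriptional silencing and repressive chromatin. Nxf2 is related to the general messenger RNA exporter Nxf1 but works in silencing. The best known targets in these cells are Ty3/gypsy retrotransposons, among them the errantiviruses, whose env gene resembles that of retroviruses and can help them pass from follicle cells to the germline.

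The IP library held 1082564 reads and the SMInput 2438071 reads, of which 24097 and 21282 fell on elements. A single read was thus worth 0.924 RPM in the IP and 0.410 RPM in the SMInput. Among the 51 entries left out, 33 had 0 reads in both libraries and none had more than 3 in either. The faintest members kept were TAHRE with a mean of 1.12 RPM, QUASIMODO2 with 1.24 RPM and HETA with 1.43 RPM. Just under the minimum were TC1 with 0.896 RPM, GYPSY11 with 0.888 RPM and GYPSY10 with 0.795 RPM. Among the 78 kept, 19 had fewer than 10 reads in the 2 libraries together. Entries are consensus sequences with no place in the genome, and how reads shared by related entries (DM412 and DM412B, QUASIMODO and QUASIMODO2, GYPSY6 and GYPSY6A, TART and TART_B1, Gypsy2 and GYPSY2) were counted is not stated.

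Element RNA took a larger share of the IP than of the input. Elements supplied 0.873% of SMInput reads (Wilson 95% interval 0.861 to 0.885%) and 2.23% of IP reads (2.20 to 2.25%), a ratio of 2.55 (2.50 to 2.60). Most of these reads came from 2 entries, COPIA and Gypsy1, which are abundant in OSC. Together they supplied 81.8% of element reads in the SMInput and 60.6% in the IP. Without them, elements took 0.159% of the SMInput and 0.876% of the IP, a ratio of 5.51 (5.31 to 5.72). The libraries come from bulk cultures, so the share of cells with an element's RNA and its amount per cell cannot be told apart.

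The make-up of element reads shifted from COPIA and Gypsy1 towards other Ty3/gypsy retrotransposons. COPIA went from 49.6% of element reads in the SMInput to 44.2% in the IP, and Gypsy1 from 32.2% to 16.4%. GYPSY, the type errantivirus, went from 1.20% to 8.91%. BLOOD went from 6.72% to 11.0%, and DM297 from 0.578% to 3.20%. A list of env-carrying Ty3/gypsy entries took 2.24% of element reads in the SMInput and 14.7% in the IP, and its summed reads had an IP over SMInput ratio of 16.8 (15.3 to 18.5). Most of these reads came from GYPSY and DM297, with 2146 and 771 of the 3548 IP reads and 255 and 123 of the 476 SMInput reads. The summed ratio thus mainly describes these entries.

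**Figure D1:**
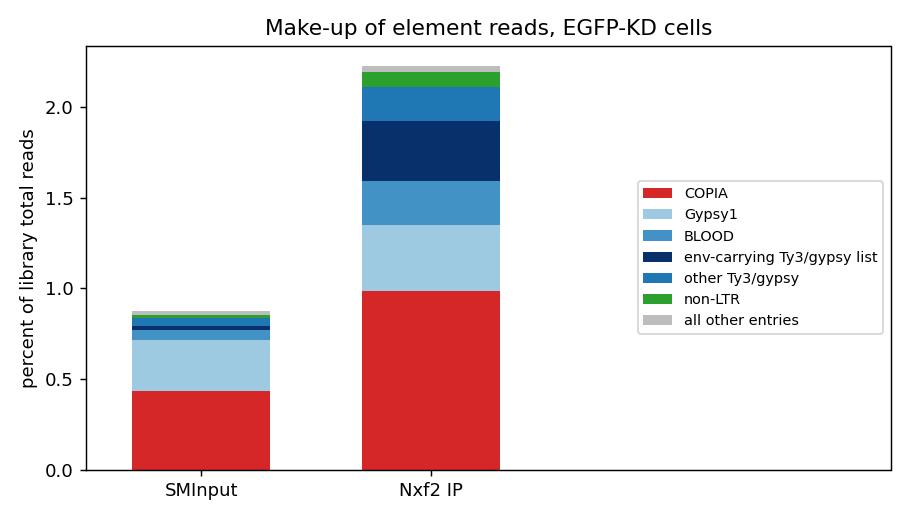
Percent of all library reads that fell on elements (y axis) in the SMInput and the Nxf2 IP of EGFP-KD cells, each 1 library, stacked by source; bars start at 0. The stack reaches 0.873% in the SMInput, where COPIA and Gypsy1 fill most of it, and 2.23% in the IP, where the env-carrying Ty3/gypsy list is much thicker.

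Across the 78 members, 39 were higher in the IP, which is 50%, and 3 were lower, which is 3.85%. TAHRE, with 1 SMInput read and 0 IP reads, had no ratio, and 35 were not called. Of the 77 ratios, 63 lay above 1 and 14 below, and their median was 2.82. Relative to that median, 23 members were higher (63.9% of the calls, against 92.9% before) and 13 lower. The 39 comprised 16 elements at 10-fold or more, 12 between 5-fold and 10-fold and 11 between 2-fold and 5-fold. Of the uncalled, 13 had a ratio of at least 2 with an interval that spans 1, and none of these had more than 11 SMInput or 12 IP reads. For these no difference was detectable at this depth.

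Per kb of element, COPIA had the highest level in the IP. It had 10547 SMInput and 10652 IP reads, which is 888 RPM per kb in the SMInput and 2020 RPM per kb in the IP. Its ratio was 2.27 (2.21 to 2.34), close to that of all elements together, to which it supplied the most reads. Gypsy1 had 6857 SMInput and 3959 IP reads, 394 and 513 RPM per kb. Its ratio of 1.30 (1.25 to 1.35) lay above 1 but under the threshold, although it was the second most abundant entry in both libraries.

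BLOOD, a Ty3/gypsy retrotransposon related to MDG1 and DM412, had 1430 SMInput and 2643 IP reads. It came to 83.6 RPM per kb in the SMInput and 348 RPM per kb in the IP, a ratio of 4.16 (3.90 to 4.44). GYPSY had 255 and 2146 reads, or 15.0 and 284 RPM per kb, a ratio of 19.0 (16.6 to 21.7). In the SMInput GYPSY stood well below BLOOD, and in the IP the gap was narrower. DM297, another errantivirus, had 123 and 771 reads and a ratio of 14.1 (11.7 to 17.2). STALKER2 had 263 and 528 reads, with a ratio of 4.52 (3.89 to 5.26). STALKER2 and GYPSY thus had similar numbers of SMInput reads but very different numbers of IP reads.

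Lower in the order of IP reads stood QUASIMODO, DM176 and the LINE-type elements DOC6 and I. DM176, another errantivirus, had 58 SMInput and 259 IP reads with a ratio of 10.1 (7.54 to 13.6). The I element, a non-LTR retrotransposon known for hybrid dysgenesis in the germline, had 92 and 304 reads with a ratio of 7.44 (5.88 to 9.50). DOC6 had 119 and 317 reads with a ratio of 6.0 (4.84 to 7.47). All 3 intervals lay wholly above the median ratio of the members.

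**Figure D2:**
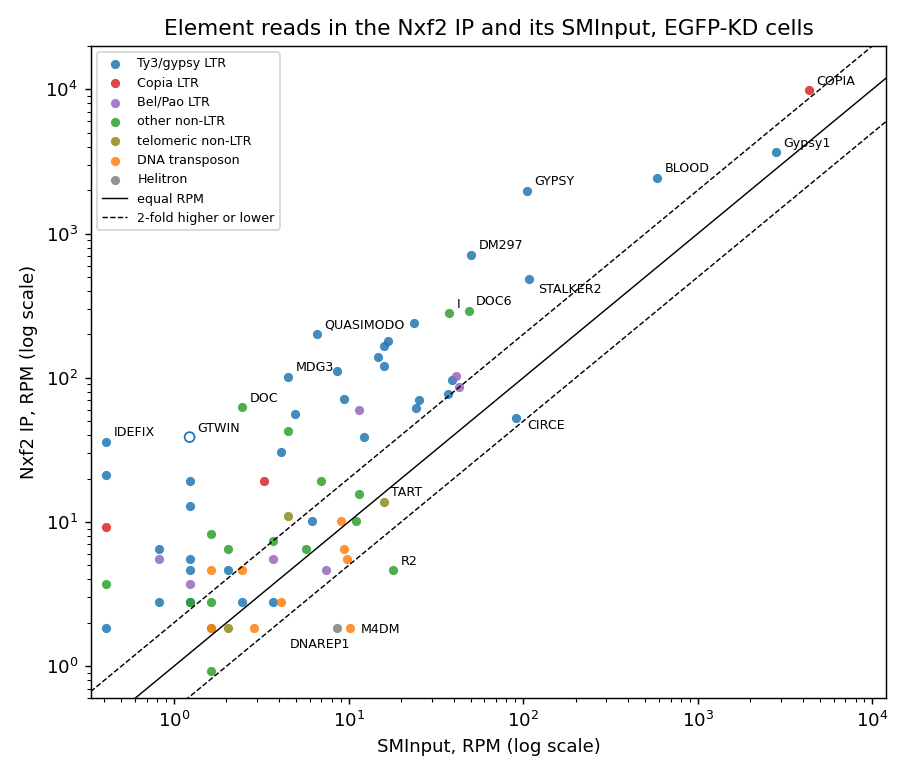
RPM in the Nxf2 IP (y axis) against RPM in the SMInput (x axis), both on log scales, for the 77 members with IP reads; each point is 1 element, coloured by class, and the open circle is GTWIN, drawn at the floor of 3 SMInput counts. The solid line marks equal RPM and the dashed lines 2-fold; GYPSY, DM297 and QUASIMODO lie far above the upper dashed line, Gypsy1 between the lines, and R2, M4DM and DNAREP1 below the lower one.

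The highest ratios belonged mostly to Ty3/gypsy elements with very few SMInput reads. IDEFIX, an errantivirus controlled by flamenco, had 1 SMInput and 39 IP reads, a ratio of 87.8 with an interval from 14.9 to 3557. Gypsy2 had 1 and 23 reads, a ratio of 51.8 (8.41 to 2134). GTWIN, a close relative of GYPSY, had 0 SMInput and 42 IP reads with a ratio of 31.5 against a floor of 3 SMInput counts and an exact lower limit of 24.5. The intervals of these 3 overlap, so their order is not resolved.

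QUASIMODO had 16 SMInput and 218 IP reads, and its ratio of 30.7 (18.5 to 54.6) had an interval wholly above that of DM297. MDG3 had 11 and 110 reads with a ratio of 22.5 (12.1 to 46.4). The non-LTR element DOC had 6 and 68 reads with a ratio of 25.5 (11.1 to 72.0). DOC, MDG3 and GYPSY could not be ordered within counting error.

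ROVER, an errantivirus, had 3 SMInput and 21 IP reads, a ratio of 15.8 (4.71 to 82.5). DM1731, a Copia-type retrotransposon, had 1 and 10 reads, a ratio of 22.5 (3.20 to 977). Of the 39 elements called higher, 9 had fewer than 5 SMInput reads. Their direction was resolved within counting error only, without a replicate check, and their size was not resolved.

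By class, most higher calls fell on LTR retrotransposons, which also made up most of the members. Of 47 LTR members 33 were higher and 0 were lower, beside 39 higher and 3 lower of all 78 members. Among 37 Ty3/gypsy members 26 were higher, with a median ratio of 7.43 beside 2.82 over all members. The 12 members of the env-carrying list ranged from 3.38 to 87.8 with a median of 12.1, and 8 were called higher. The lowest, DMTOM1, is an entry of only 410 bases, so its place on the list rests on its name. The 4 uncalled, QUASIMODO2, GYPSY5, NOMAD and DMTOM1, had between 2 and 6 IP reads each. The 25 Ty3/gypsy members outside that list had a median of 4.16, with 18 higher.

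Among those other Ty3/gypsy elements the middle of the range was well counted. MDG1 had 41 SMInput and 196 IP reads and a ratio of 10.8 (7.66 to 15.5). DM412 had 21 and 121 reads and a ratio of 13.0 (8.12 to 21.7). BLASTOPIA had 39 and 181 reads and a ratio of 10.5 (7.36 to 15.2). TABOR, with 36 and 150 reads, had a ratio of 9.38 (6.49 to 13.9), so these 4 elements lay close together with overlapping intervals. STALKER4 followed with 39 and 131 reads at 7.56 (5.25 to 11.1), and HMSBEAGLE with 23 and 77 reads at 7.54 (4.68 to 12.6).

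Ty3/gypsy elements were not uniformly high. TRANSPAC had 90 SMInput and 83 IP reads, a ratio of 2.08 (1.52 to 2.83), close to the threshold. CIRCE had 222 and 57 reads, and its ratio of 0.578 (0.424 to 0.777) had an interval below 1 without passing the threshold. CIRCE and Gypsy1 were the 2 Ty3/gypsy entries with over 200 SMInput reads that were not higher in the IP.

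All 3 Copia-type members were higher, COPIA and DM1731 as above and Copia1 with 8 SMInput and 21 IP reads at a ratio of 5.91 (2.52 to 15.4). Of 7 Bel/Pao members 4 were higher, beside 50% of all members, with a class median of 2.50. ROO, one of the most numerous retrotransposons of the fly genome, had 28 and 65 reads and a ratio of 5.23 (3.31 to 8.46). DIVER had 101 and 112 reads at 2.50 (1.89 to 3.30), and BEL 104 and 94 reads at 2.04 (1.52 to 2.72). Bel/Pao reads summed to a ratio of 2.48 (2.09 to 2.94). Relative to the median of the members, 0 Bel/Pao entries and 1 Copia-type entry were higher.

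Of 17 non-LTR members that are not telomeric, 6 were higher, beside 50% of all members, and 1 was lower, with a median ratio of 2.25. Beside DOC, DOC6 and I, the 6 included FW with 11 SMInput and 46 IP reads at 9.42 (4.81 to 20.2). IVK had 17 and 21 reads at 2.78 (1.40 to 5.62), just under the median of the members, and DOC2 had 4 and 9 reads at 5.07 (1.41 to 22.5). DOC3 lay at the threshold with 9 and 8 reads and a ratio of 2.0 (0.672 to 5.85), and was not called.

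R2 and R1 insert into the ribosomal RNA genes, and neither was higher in the IP. R2 had 44 SMInput and 5 IP reads, a ratio of 0.256 (0.0792 to 0.644). R1 had 28 and 17 reads, a ratio of 1.37 (0.702 to 2.59). The interval of R2 lay wholly below that of R1.

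The telomeric retrotransposons, which maintain fly chromosome ends, showed no called difference, beside 50% higher and 3.85% lower of all members. TART had 39 SMInput and 15 IP reads, a ratio of 0.866 (0.444 to 1.61). TART_B1 had 11 and 12 reads at 2.46 (0.992 to 6.15), and HETA had 5 and 2 reads at 0.901 (0.0858 to 5.50). Summed, the telomeric entries had a ratio of 1.17 (0.718 to 1.86), an interval that lies below the ratio of all elements together.

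DNA transposons mostly had low ratios, as did the single Helitron member. Of 9 DNA transposon members none was higher and M4DM was lower, beside 50% higher and 3.85% lower of all members, and the median was 0.685. Ratios lay above 1 for 4 of the 9, up to 2.82 (0.606 to 14.2) for HOBO with 4 SMInput and 5 IP reads. M4DM had 25 SMInput and 2 IP reads, a ratio of 0.180 (0.0207 to 0.723). PROTOP_A, a fragment related to the P element, had 22 and 11 reads at 1.13 (0.493 to 2.42), FB4 23 and 7 reads at 0.685 (0.248 to 1.65), and TC1-2 24 and 6 reads at 0.563 (0.188 to 1.41). Summed, the class had only 127 SMInput and 44 IP reads, which limits the calls, and a ratio of 0.780 (0.541 to 1.11). DNAREP1, a short non-autonomous Helitron, had 21 and 2 reads and a ratio of 0.214 (0.0244 to 0.877).

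Nearest the threshold on its lower side stood TRANSIB3, with 6 SMInput and 5 IP reads at 1.88 (0.453 to 7.38), and G5A, with 4 and 3 reads at 1.69 (0.247 to 9.98). INVADER2 had 15 and 11 reads at 1.65 (0.686 to 3.85). Their intervals reach well past 2, so their side of the threshold rests on a few reads.

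**Figure D3:**
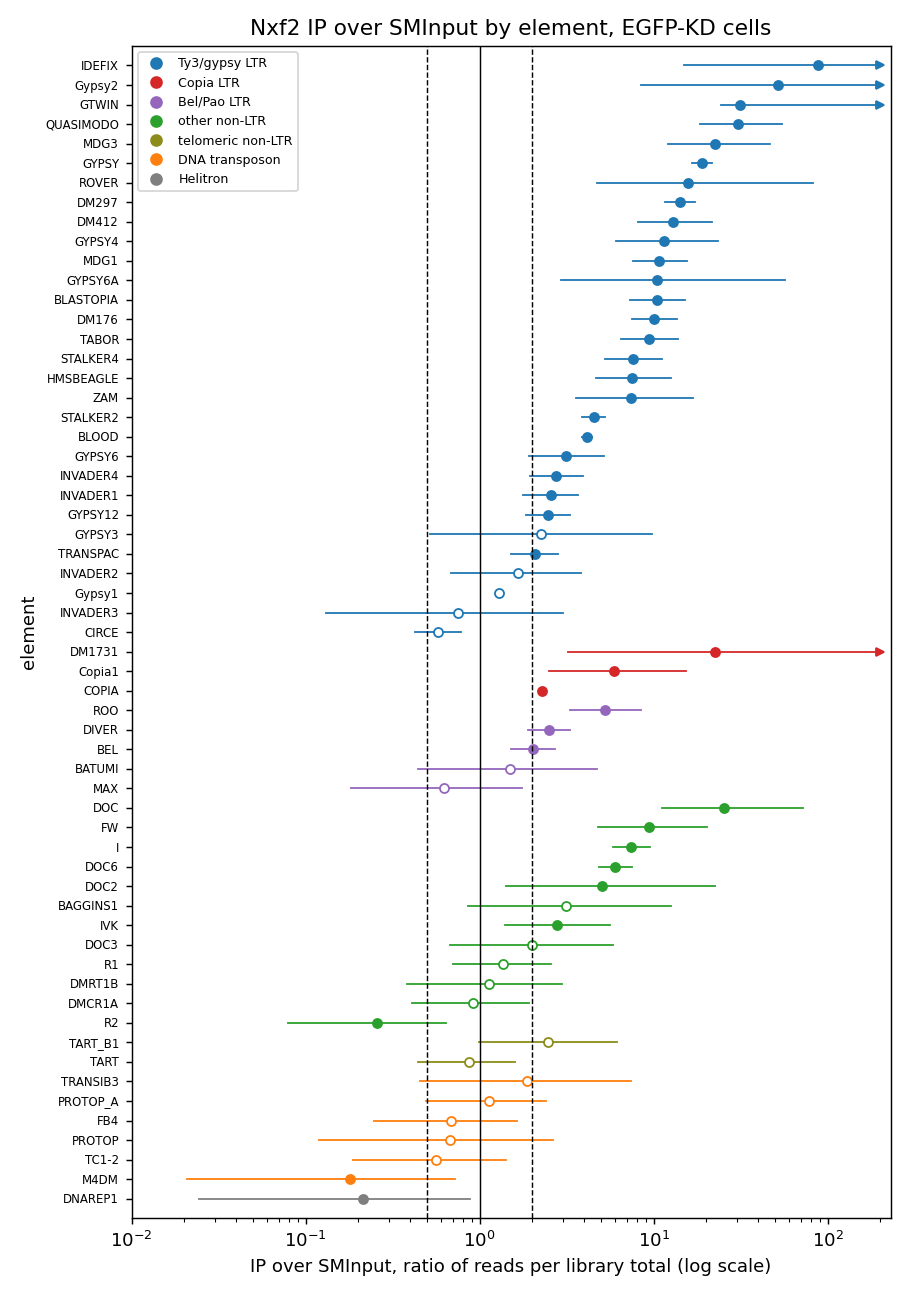
IP over SMInput ratio (x axis, log scale) of the 59 members with at least 10 reads in the IP and SMInput together, by class; bars are exact 95% counting intervals, filled points are called and open points are not, and an arrow marks a bar that runs past the axis. GTWIN is drawn at the floor of 3 SMInput counts; Ty3/gypsy elements fill the upper range, while DNA transposons lie between 0.180 (M4DM) and 1.88 (TRANSIB3), the Helitron DNAREP1 at 0.214, and the telomeric TART and TART_B1 at 0.866 and 2.46.

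The ratio showed little relation to how much of an element's RNA the cells held. Across 76 members, log2 ratio and log2 RNA level (RPKM, RPM per kb of element, in the separate poly(A)+ libraries of EGFP-KD cells) had r = 0.0995 and rho = 0.155. Among the 36 members with at least 10 reads in each CLIP library, r was -0.111. RNA level and SMInput RPM per kb went together more closely, at r = 0.640 over 76 members. All these points share libraries and element lengths, and they describe these libraries only.

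Single elements show the contrast. GTWIN, with 0.631 RPKM of RNA, had 38.8 RPM in the IP, and IDEFIX, with 3.47 RPKM, had 36.0 RPM. POGO, a DNA transposon with 164 RPKM of RNA, had 7 SMInput and 2 IP reads, a ratio of 0.643 (0.0652 to 3.38). BEL, with 124 RPKM, and GYPSY12, with 94.0 RPKM, had ratios of 2.04 and 2.47. The median RNA level was 7.88 RPKM over the 39 elements called higher and 1.55 RPKM over the 35 not called.

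The ratio was higher where Piwi carried more small RNA of the element. Piwi-bound small RNA, from 1 separate library of 3187937 reads, had r = 0.687 and rho = 0.744 with the ratio on log2 scales, per kb and over 76 members. Among the 36 members with at least 10 reads in each CLIP library, r was 0.781 and rho 0.849. The median was 998 RPM per kb over the 39 elements called higher and 23.2 RPM per kb over the 35 not called. Entries may share piRNA reads where their sequences are related, and DMRT1A and DMRT1B, GYPSY3 and GYPSY4, and BATUMI and MAX are listed with the same length, on which their values per kb rest.

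Of the 20 members with at least 1000 RPM of small RNA per kb, 19 were higher in the IP, beside 50% of all members. The exception was GYPSY5, with 3 SMInput and 6 IP reads at a ratio of 4.50 (0.962 to 27.8). Their median ratio was 11.1. Of 17 members between 100 and 1000 RPM per kb, 9 were higher and DNAREP1 was lower, with a median ratio of 3.75. Of 41 members under 100 RPM per kb, 11 were higher and M4DM and R2 were lower, with a median ratio of 1.67. These bounds were chosen after the values were seen.

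Among the well-counted members, the outer groups by small RNA had ratios that did not overlap, while over all members they did overlap. With at least 50 SMInput reads there were 5 members at or above 1000 RPM of small RNA per kb, namely GYPSY, DM297, I, DM176 and BLOOD, and their ratios ran from 4.16 to 19.0. The 8 members under 100 RPM per kb were COPIA, CIRCE, INVADER1, INVADER4, TRANSPAC, DIVER, BEL and GYPSY12, and their ratios ran from 0.578 to 2.76. The 3 in between, STALKER2, DOC6 and Gypsy1, had ratios of 4.52, 6.0 and 1.30, which fall within the ranges of the outer groups. The bound of 50 reads was also chosen after the values were seen, and no test was made. Over all members, ratios ran from 4.16 to 87.8 at or above 1000 RPM per kb and from 0.180 to 22.5 under 100. In the latter group DM1731, with 1 SMInput and 10 IP reads, had the highest ratio, and Copia1, with 8 and 21 reads, had 5.91.

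Of the 8 well-counted members under 100 RPM per kb, 7 passed the threshold with ratios in a narrow range. Over all 41 members under 100 RPM per kb, 11 were higher, beside 50% of all 78 members. With at least 50 SMInput reads, only Gypsy1 and CIRCE were not called higher at any small RNA level, so the 7 calls also follow the depth bound. INVADER4 had 62 SMInput and 76 IP reads and a ratio of 2.76 (1.95 to 3.93), INVADER1 59 and 67 reads and 2.56 (1.78 to 3.69), and GYPSY12 95 and 104 reads and 2.47 (1.85 to 3.29). With TRANSPAC, DIVER, BEL and COPIA they spanned 2.04 to 2.76, around the ratio of 2.55 that all element reads had together. Most reads behind that 2.55 came from COPIA and Gypsy1, and without these 2 entries the ratio was 5.51. Relative to the median ratio of the members, each of these 7 was below 1.

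Gypsy1 and COPIA had the most RNA, at 1428 and 7672 RPKM, and small RNA of 377 and 62.2 RPM per kb. BLOOD, with 428 RPKM of RNA, had 1056 RPM of small RNA per kb. Among these 3 abundant entries the ratios were 1.30, 2.27 and 4.16, and did not rank as the small RNA levels did, since Gypsy1 had more than COPIA.

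**Figure D4:**
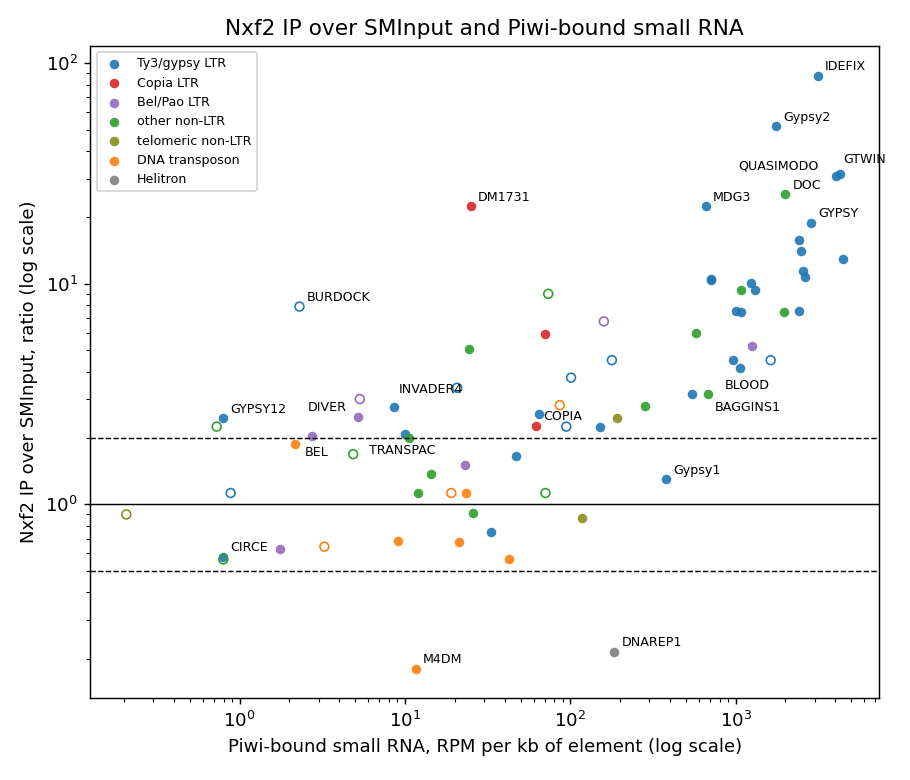
IP over SMInput ratio (y axis, log scale) against Piwi-bound small RNA in RPM per kb of element (x axis, log scale) for 76 members; filled points have at least 10 CLIP reads in the 2 libraries together, open points fewer, and lines mark ratios of 1, 2 and 0.5. Points at or above 1000 RPM per kb have ratios of 4.16 or more, while COPIA, BEL, DIVER, TRANSPAC and GYPSY12 lie near 2 at low small RNA. Other points with low small RNA lie higher, among them DM1731 at 22.5 and BURDOCK at 7.88.

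Most elements whose RNA was higher after Nxf2 knockdown were also higher in the IP. In the separate RNA libraries, 21 of 77 members with a value were higher in Nxf2-KD than EGFP-KD cells, which is 27.3%. Of these 21, 17 were among the 39 (81.0% of the 21 and 43.6% of the 39), beside 50% of all members higher in the IP. The median RNA ratio was 1.85 over the 39 and 1.02 over the 35 not called, and the correlation of the log2 ratios was r = 0.454 over 76 members. Over 36 members with at least 10 reads on each side, r was 0.628.

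Both kinds of exception were present. GYPSY4, with 12 SMInput and 61 IP reads and a CLIP ratio of 11.4 (6.10 to 23.4), had an RNA ratio of 0.669 after Nxf2 knockdown. IDEFIX had an RNA ratio of 1.26 and HMSBEAGLE of 1.17. DM1731 had 0.975 and TRANSPAC 0.999. GYPSY5, whose RNA was 14.7-fold higher after Nxf2 knockdown, had too few CLIP reads to be called.

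The CLIP of myc-Nxf2 after ultraviolet (UV) crosslinking, for which the labels name no knockdown, gave calls that fell almost wholly on elements called here, with smaller ratios. There, 22 of 71 members with a ratio were higher in the IP, which is 31%. Of those 22, 21 were among the 39 (95.5% of the 22 and 53.8% of the 39), and the other was PROTOP_A. The 39 are 50% of all members. Over 71 members the log2 ratios had r = 0.676, and over 25 with at least 10 reads on each side r was 0.855. All element reads together had a ratio of 1.14 (1.12 to 1.17) there, beside 2.55 here. The cells of that experiment differ in the knockdown, and the experiments have separate inputs.

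The difference was measured as the EGFP-KD ratio divided by the UV ratio, with an exact conditional interval on the 4 counts. Of 69 members with a value, 15 were higher here, which is 21.7%, and 1 was lower, which is 1.45%. The median over the 69 was 1.69, and 51 lay above 1. COPIA accounted for most of the reads: it had 23025 SMInput and 9315 IP reads in the UV experiment, a ratio of 0.897 (0.876 to 0.919). Its ratio here was 2.53 times that (2.44 to 2.63).

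The largest differences rested on few reads. Gypsy2, at 51.8 here and 2.40 in the UV experiment, differed 21.6-fold (2.50 to 960), and BURDOCK, with 2 SMInput and 7 IP reads here, differed 10.7-fold (1.18 to 132). ZAM, the errantivirus with 10 and 33 reads at 7.43 (3.58 to 16.9) here, was at 0.951 there and differed 7.82-fold (1.39 to 53.2). TABOR and QUASIMODO were better counted, with 51 SMInput and 48 IP reads and with 18 and 59 reads in the UV experiment. They differed 4.49-fold (2.54 to 7.96) and 4.22-fold (1.89 to 9.40).

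CIRCE was the 1 member lower here than in the UV experiment. It had 87 SMInput and 50 IP reads there, a ratio of 1.27, and differed by a factor of 0.454 (0.281 to 0.734). After centring both sets of ratios on their medians, 3 members were higher and 4 lower. The part of the knockdown in the shift between the experiments was not tested.

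Element reads were also a larger share of the IP than of the SMInput without UV. In that library pair, of 426679 IP and 1666619 SMInput reads, all elements together had a ratio of 3.48 (3.24 to 3.73). The element shares were small, at 0.354% of the IP and 0.102% of the SMInput, beside 2.23% and 0.873% in the EGFP-KD pair. Of 34 members with a ratio there, 10 were higher, which is 29.4%, and 9 of these were among the 39, which are 50% of all members. The remaining one was Gypsy1, and 37 members had 0 IP reads without UV.

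GYPSY had 14 SMInput and 15 IP reads without UV, a ratio of 4.19 (1.88 to 9.36), and DM297 had 13 and 11 reads, a ratio of 3.31 (1.34 to 8.0). COPIA had 901 and 990 reads, a ratio of 4.29 (3.92 to 4.70). Without UV the intervals of GYPSY and DM297 overlapped that of COPIA, while in the EGFP-KD pair their ratios were 19.0 and 14.1 against 2.27. BLOOD, with 72 and 72 reads without UV, had a ratio of 3.91 (2.78 to 5.49) there, beside 4.16 in the EGFP-KD pair. DIVER, with 18 and 17 reads, had 3.69 (1.79 to 7.59) there, beside 2.50. The EGFP-KD ratio thus did not exceed the ratio without UV for every element. QUASIMODO had 0 and 1 reads and GTWIN 0 in both, so nothing can be said of them. The part of RNA carried along without crosslinking in the EGFP-KD ratios was not tested.

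Piwi CLIP in OSC, made with an antibody against Piwi and its own SMInput, gave more higher calls. Its IP had 108320 element reads and its SMInput 12211, beside 24097 and 21282 in the EGFP-KD pair. Calls depend on these counts, so the numbers of calls are not on an equal footing. All element reads together had a ratio of 5.40 (5.30 to 5.50) there, and 51 of 76 members with a ratio were higher, which is 67.1%. Of these 51, 31 were among the 39 (60.8% of the 51 and 79.5% of the 39), beside 50% of all members higher in the Nxf2 IP. The log2 ratios had r = 0.487 over 75 members, and r = 0.670 over 25 with at least 10 reads on each side. A Piwi IP also holds piRNAs, and how far these remain in the counts is not stated.

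Divided by the Piwi CLIP ratio, the Nxf2 ratio was higher in 5 of 68 members, which is 7.35%, and lower in 16, which is 23.5%. The 5 were Gypsy2 at 14.2 (1.41 to 700), INVADER4 at 4.91 (2.44 to 9.91), R1 at 4.49 (1.43 to 14.8), INVADER1 at 4.10 (2.26 to 7.45) and TABOR at 2.25 (1.18 to 4.22). INVADER4 and INVADER1 had Piwi CLIP ratios of 0.562 and 0.624, under 1. In the UV-crosslinked Nxf2 CLIP neither was called, at 0.994 (0.730 to 1.34) and 1.07 (0.778 to 1.47), so their contrast with Piwi rests on the EGFP-KD pair. Relative to the median of the members they were below 1 in that pair too.

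The median factor over the 68 was 0.691, and 26 lay above 1. Of the 16 lower members, 8 were called higher in the Nxf2 IP (COPIA, MDG1, DM297, I, STALKER4, DOC6, TRANSPAC and ROO), 6 were not called and 2 were lower. Over all 78 members, 50% were called higher in the Nxf2 IP and 3.85% lower. M4DM had 14 SMInput and 110 IP reads in the Piwi CLIP, a ratio of 4.78, and the Nxf2 ratio was 0.038 of that (0.00415 to 0.185). DNAREP1 had 10 and 69 reads at 4.20, and a factor of 0.051 (0.00546 to 0.274). CIRCE had 47 and 452 reads at 5.85, and a factor of 0.099 (0.0636 to 0.153).

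MAX and INVADER3 were alike in direction, at factors of 0.104 (0.0270 to 0.357) and 0.051 (0.00113 to 0.676). MDG1, high in both experiments, had 7 SMInput and 952 IP reads with Piwi and a factor of 0.130 (0.0487 to 0.300). R2 was low in both, with 15 and 5 reads at 0.203 (0.0577 to 0.587) in the Piwi CLIP. GYPSY had a ratio of 19.3 with Piwi and 19.0 with Nxf2, and the interval of the factor between them ran from 0.769 to 1.24.

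**Figure D5:**
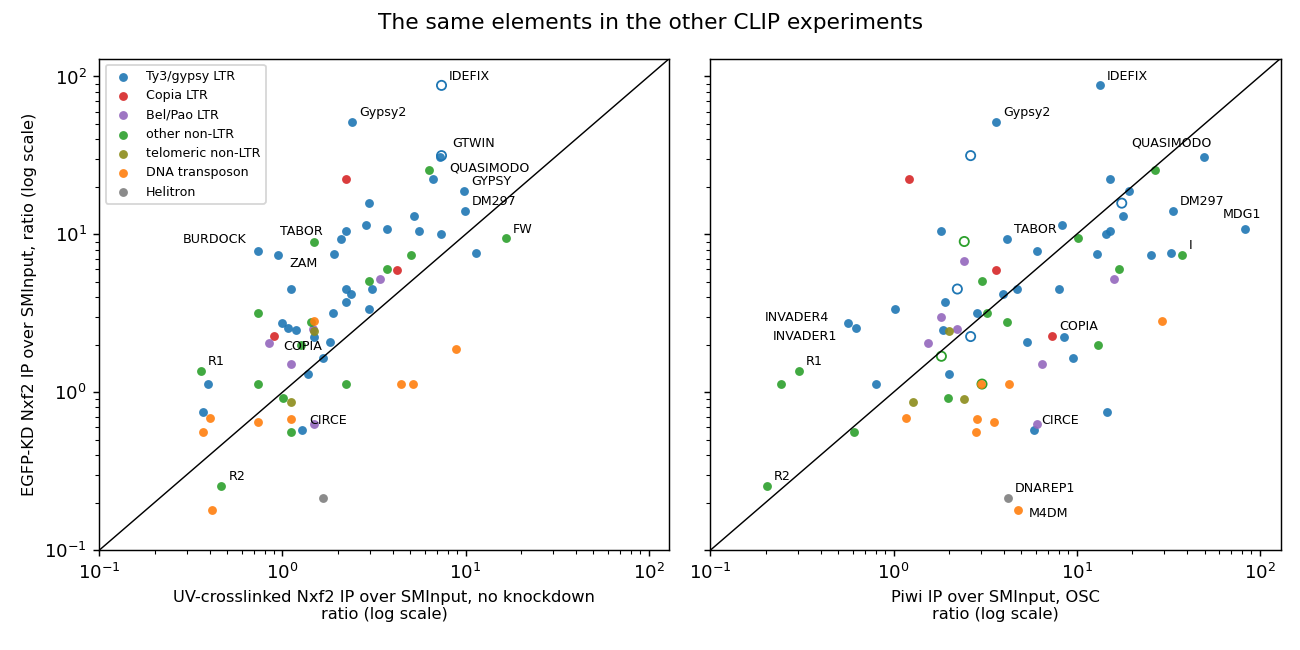
EGFP-KD Nxf2 IP over SMInput ratio (y axis) against the ratio in the UV-crosslinked Nxf2 CLIP without a named knockdown (left, 71 members) and in the Piwi CLIP (right, 75 members), all on log scales; each point is 1 element, open circles have 0 SMInput reads in one experiment and are drawn at the floor of 3 counts, and the line marks equal ratios. Most points on the left lie above the line with GYPSY, DM297 and QUASIMODO at the upper end, and on the right M4DM, DNAREP1 and CIRCE lie far below it.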

How the data were processed

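Counts of reads per element and RPM were deposited by the authors for the CLIP and small RNA libraries, and counts and RPKM for the RNA libraries. The submitters' processing notes name cutadapt, STAR, SAMtools, Bowtie and dm3 for CLIP, with no role or order. Versions, counting of multiply mapped reads and pooling of samples are not given in the sources used here. The labels' protocols describe RNase T1, IP and gel isolation. RPM rests on a library total, recovered as counts divided by RPM. It has no correction for how much RNA the IP recovered.

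From 5 tables, each element's IP over SMInput ratio was taken from reads divided by library totals, with exact 95% Clopper-Pearson limits, and experiments were compared by dividing their ratios, with exact conditional limits from the odds ratio. Against 0 reads a floor of 3 counts replaced the 0. The code was tested on simulated data. Correlations are on log2 values, without a p. Members, classes and comparisons were chosen with earlier results of these data known, and class lists rest on textbook element classes. Named were the 10 members with most IP reads, the 10 highest called ratios, every lower call, the 3 nearest a ratio of 2 on each side, the 3 with most reads per class and the 5 largest differences per direction. Others, such as CIRCE in the class account, POGO, FW, IVK, DOC2, GYPSY4, GYPSY12, MDG1, DM412, BLASTOPIA, STALKER4 and HMSBEAGLE, were chosen after their values were seen. Peak lists of H3K9me3 were not used.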

Additional observations from a re-analysis of the deposited data

Results flagged for a closer look

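For 16 elements the IP over SMInput ratio of EGFP-KD cells differed from that of the UV-crosslinked CLIP without a named knockdown, by at least 2-fold and with the interval of the ratio of ratios off 1. COPIA differed 2.53-fold. GYPSY12 differed 2.08-fold, INVADER1 2.38-fold, BEL 2.40-fold and INVADER4 2.78-fold, all 4 with low Piwi-bound small RNA. MDG1 differed 2.88-fold, MDG3 3.38-fold, HMSBEAGLE 3.97-fold, GYPSY4 4.01-fold, QUASIMODO 4.22-fold and TABOR 4.49-fold. R1 differed 3.82-fold although it was not called here. ZAM at 7.82-fold, BURDOCK at 10.7-fold and Gypsy2 at 21.6-fold rested on few reads. CIRCE alone went the other way, at a factor of 0.454. The inputs of the experiments are separate, and the part of the knockdown, of the inputs or of the general shift in these differences was not tested.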

How the results depend on the processing

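No paired analysis was possible because each table has 1 column per group, so replicate blocks, fits without a replicate, edgeR and DESeq2 could not be run. The 39 higher calls were all kept with no filter, with totals that leave out element reads, with pseudocounts of 1 and 0.1 RPM and at a ratio of 1.5. A minimum of 10 RPM and a pseudocount of 10 RPM each kept 32, and a ratio of 4 kept 30. Centring the ratios on their median (log2 1.49) left 23 higher and 13 lower, so 63.9% of calls were higher against 92.9% before, with 0 of the Bel/Pao and 1 of the Copia entries higher. Lower calls numbered 1 at a minimum of 10 RPM and 0 with a pseudocount of 10 RPM. Under centring 24 of the 63 ratios above 1 fell below it, 8 of them called higher before, including IVK (log2 -0.017) and GYPSY12 (-0.19). Among the elements named by rule the log2 ratio was reversed for COPIA (-0.31), Gypsy1 (-1.11), BEL (-0.47), TRANSPAC (-0.44), DIVER (-0.17), PROTOP_A (-1.32), R1 (-1.04), INVADER1 (-0.14) and INVADER4 (-0.028). Against the UV experiment centring gave 3 higher and 4 lower, and against the Piwi CLIP 10 lower. Without COPIA and Gypsy1, an alternative chosen after seeing the data, the ratio of element shares was 5.51. Depth limits the elements under 10 reads most.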
